A study of Mus musculus with 40 samples.

Results

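The Hippo-YAP pathway genes described here are 10 genes chosen by name: the coactivators Yap1 and Wwtr1, the DNA-binding factors Tead1, Tead2, Tead3 and Tead4, the kinase Lats2, the scaffolds Amotl2 and Ajuba, and the target Ankrd1. Each is named by a single role. Members named as regulators may also be targets of YAP and TAZ, but were not counted among the targets described below. All 10 were found by symbol among the 55487 genes counted, and all 10 passed the filter on low counts together with 20297 genes in all. The RNA came from whole liver of female mice (C57BL/6JBomTac) that were 9 weeks of age by the study's methods and received purified control diet (PD). Feeding lasted 3, 6, 12, or 21 days, and in the labels these numbers stand as the age. HNKO mice (hepatocyte-specific Nampt knockout) carried floxed Nampt alleles and Alb-Cre, and WT mice were floxed littermates. The Alb promoter drives Cre in hepatocytes, and the RNA of all liver cells was measured together. Whether the other cells of an HNKO liver kept an intact Nampt gene was not measured here. Of the 38 libraries used, WT contributed 5, 4, 5, and 5 and HNKO 5, 5, 6, and 3 in the order of the days, each library from 1 mouse. Libraries 17 and 18 of HNKO at day 21 are labeled as having failed quality control and were left out of the comparisons. Total counts per library were between 16151037 and 64181492. Expression is given as log2 CPM, the log2 of counts scaled to library size (CPM) after normalization for composition, with a prior count of 2.

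In the Hippo pathway, the kinases MST1 and MST2 (genes Stk4 and Stk3) with SAV1 activate LATS1 and LATS2, which phosphorylate YAP and its paralog TAZ (gene Wwtr1) and so keep them out of the nucleus. When this cascade is less active, YAP and TAZ enter the nucleus, bind the TEAD factors, and raise the transcription of target genes. In liver the pathway is known as a control of organ size and of the difference between hepatocytes and bile duct cells. The regulation acts largely on the proteins, which RNA counts do not measure.

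The labels were first checked with Nampt, the deleted gene, which encodes the rate-limiting enzyme of NAD synthesis from nicotinamide. At day 3 Nampt ranged from 5.84 to 6.57 log2 CPM in the WT libraries and from 5.14 to 5.38 in the HNKO libraries, and at day 6 from 6.00 to 7.28 and 5.48 to 6.36. The ranges were 5.90 to 7.24 and 4.92 to 5.77 at day 12, and 6.26 to 6.65 and 5.55 to 6.03 at day 21. The HNKO libraries lay below the WT libraries at days 3, 12, and 21 and overlapped with them at day 6. The log2 fold changes were -0.93, -0.90, -0.82, and -0.69 (adjusted p = 0.0193, 0.0128, 0.0208, and 0.161, edgeR), the last not called.

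Ankrd1 was higher in HNKO livers at all 4 days, Tead1 at days 3, 6, and 12, and Ajuba at days 6 and 21. The transcript of YAP itself was not called different at any day in the main fit. With the label series, defined below, as a covariate, it was called lower at day 21. The calls of day 3 were lost under several alternatives, as was the call of Ajuba at day 6. Those of Tead1 at day 12 and of Ajuba and Ankrd1 at day 21 were lost when certain single libraries were left out. A gene was called when edgeR's quasi-likelihood test gave an adjusted p below 0.05 over the 20297 genes. At day 3, 2 of 10 members were called, both higher in HNKO, beside 2.95% of all tested genes called higher and 1.71% called lower. At day 6, 3 of 10 were called, all higher, beside 8.42% higher and 4.37% lower. At day 12 it was 2 of 10, both higher, beside 4.56% higher and 3.27% lower, and at day 21 2 of 10, both higher, beside 2.21% higher and 0.916% lower. These are small counts, and at day 6 the share of all genes called was itself large. The median log2 fold change of the members was 0.30, 0.25, 0.11, and 0.35 at days 3, 6, 12, and 21, and over all tested genes it was 0.01, -0.01, 0.00, and -0.01.

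Over the mean of the 4 days, which uses all 38 libraries, 6 members were called higher and 2 lower, beside 19.2% of all tested genes called higher and 17.3% called lower. Wwtr1, Tead1, Tead2, Tead4, Ajuba, and Ankrd1 were the higher ones, Tead3 and Amotl2 the lower ones, and Yap1 and Lats2 were not called. No member was called for a difference of the genotype effect between days (edgeR, 0 of 10 members adjusted and 0 of 10 at an unadjusted p below 0.05, 0 with DESeq2). Over all tested genes it was 0.00% in edgeR, 966 genes at an unadjusted p below 0.05, and 12 genes in DESeq2. The genotype effects of the members were therefore not shown to differ between days.

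**Figure D1:**
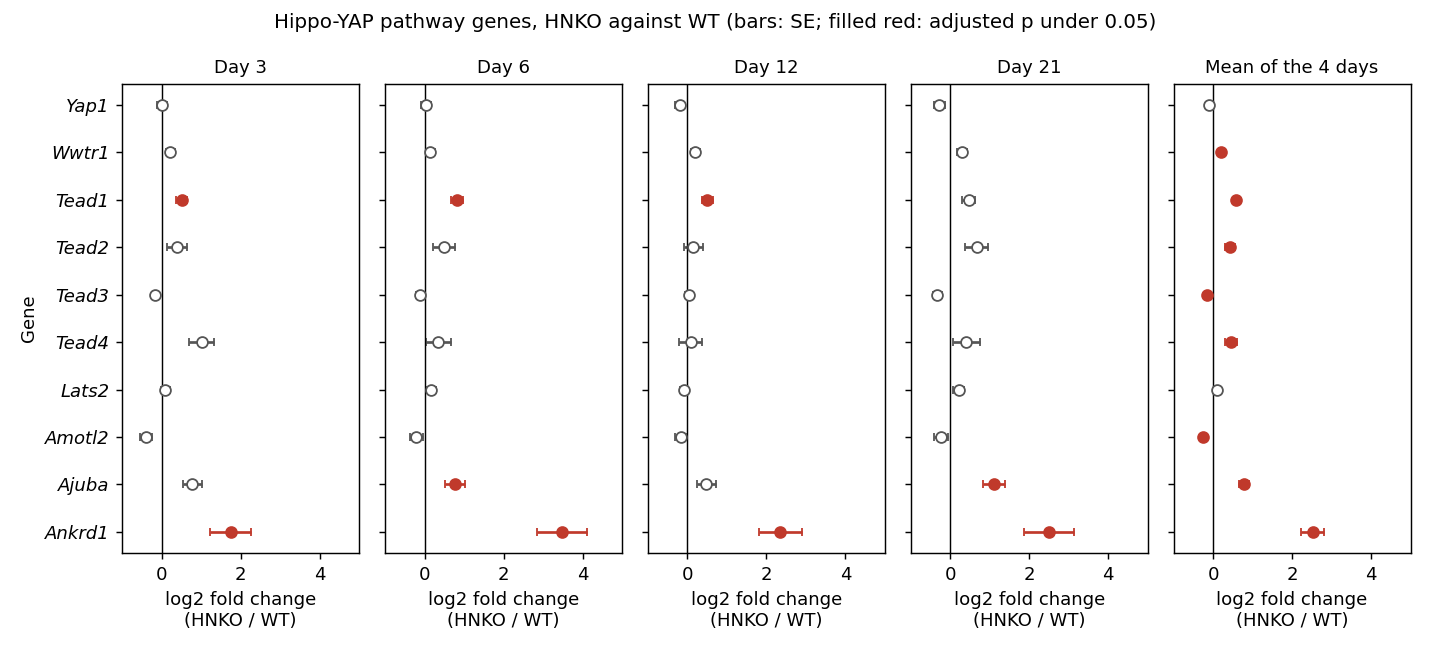
Log2 fold changes of the 10 Hippo-YAP pathway genes, HNKO against WT, at each day and over the mean of the 4 days (x axis, log2 scale; genes on the y axis). Points are edgeR estimates with their SE as bars, and filled red points have an adjusted p below 0.05; Ankrd1 is filled at all 4 days with values from 1.75 to 3.48, and Yap1 is open in every panel.

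Yap1 (chr9:7931999-8004596, minus strand, GRCm38), the coactivator that the LATS kinases hold in the cytoplasm, was among the most abundant of the members and varied little. Its WT libraries at day 3 held 5.86, 5.91, 5.99, 6.16, and 6.19 log2 CPM, and its HNKO libraries 5.84, 5.88, 5.92, 6.05, and 6.41. At day 21 the WT libraries held 6.28, 6.29, 6.33, 6.44, and 6.48, and the HNKO libraries 5.94, 6.15, and 6.19. The genotypes were interleaved at day 3, and at day 21 the 3 HNKO libraries lay below every WT library. The log2 fold change at day 21 was -0.27 (SE 0.14, adjusted p = 0.282, edgeR), which did not pass the threshold, and the exact permutation test of 3 against 5 libraries gave an unadjusted p = 0.0179 (two-sided), the smallest it allows. Over the mean of the days the log2 fold change was -0.11 (95% interval -0.23 to 0.02, adjusted p = 0.178, edgeR). With the label series as a covariate, Yap1 was called lower at day 21 (-0.42, adjusted p = 0.0254) and over the mean of the days (-0.14, adjusted p = 0.0159). Label series means the library numbers 1 to 21 or 22 to 41, each of which runs through all days. Within the label series, the difference of means of Yap1 was positive in 2 of 7 comparisons, from -0.295 to 0.139. At day 21, where no HNKO library of the first series remained, it was -0.195 in the second (3 HNKO against 2 WT libraries). An annotated gene on the opposite strand, Gm20416, overlaps 116 exonic bases of Yap1, and whether the counting used the strand is not given in the sources used here.

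Wwtr1 (chr3:57455649-57575910, minus strand), which encodes the coactivator TAZ, was slightly higher in HNKO. At day 12 the WT libraries held 4.76, 5.06, 5.06, 5.07, and 5.10 log2 CPM, and the 6 HNKO libraries ranged from 5.11 to 5.49 with a median of 5.16. All 6 HNKO libraries were thus above the 5 WT libraries at that day, by a narrow margin, and the libraries overlapped at the other days. The log2 fold changes were 0.21, 0.15, 0.20, and 0.30 at days 3, 6, 12, and 21, none of them called, and 0.21 over the mean of the days (SE 0.06, adjusted p = 0.00469, edgeR). At day 21 Wwtr1 was called with all 40 libraries (0.37, adjusted p = 0.0414, edgeR), and without HNKO library 37 its log2 fold change was 0.18.

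Of the 4 TEAD factors, which bind DNA and recruit YAP or TAZ to it, Tead1 (chr7:112679318-112906807, plus strand) was the one called at single days. At day 3 the WT libraries held 3.73, 3.76, 3.84, 3.97, and 4.47 log2 CPM and the HNKO libraries 4.18, 4.39, 4.50, 4.60, and 4.71. At day 6 the WT libraries held 3.38, 3.42, 3.50, and 3.57 and the HNKO libraries 4.01, 4.13, 4.37, 4.41, and 4.47. WT library 1 was the WT library that reached into the HNKO range at day 3, and at day 6 a gap separated the genotypes. At day 12 the WT libraries lay between 4.33 and 4.45 and the HNKO libraries between 4.66 and 5.37 with a median of 4.76. At day 21 the WT libraries held 4.53, 4.61, 4.63, 4.91, and 5.16 and the HNKO libraries 4.95, 5.17, and 5.58. The genotypes were apart at day 12, and at day 21 WT library 39 reached the HNKO range.

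In edgeR, the log2 fold change of Tead1 was 0.51 after 3 days (SE 0.15, adjusted p = 0.0371) and 0.83 after 6 days (SE 0.16, adjusted p = 0.000745). After 12 days it was 0.50 (SE 0.14, adjusted p = 0.0232, edgeR), and after 21 days 0.47 (SE 0.16, adjusted p = 0.0982), which was not called. Within the label series the difference of means was positive in 7 of 7 comparisons, from 0.17 to 0.85. The call at day 3 was lost when any of HNKO libraries 2, 3, and 23 or WT libraries 5, 24, 25, and 26 was left out (log2 fold changes 0.44 to 0.53). It was also lost without a filter on low counts (adjusted p = 0.0516), with all 40 libraries (0.0591), and in a fit of the 2 groups alone (0.0930, edgeR; log2 fold changes 0.50 to 0.51). The call was lost at day 12 without HNKO library 35 (0.40, adjusted p = 0.0594). At day 21 Tead1 was called without WT library 39 (0.58, adjusted p = 0.0442) or HNKO library 40 (0.62, adjusted p = 0.0493), and without HNKO library 37 its log2 fold change was 0.29 (adjusted p = 0.733, edgeR). Tead1 was also the only member called for a change over the days, both in WT (adjusted p = 3.01e-06, edgeR, 1 of 10 members beside 5.84% of genes) and in HNKO (adjusted p = 0.000474, 1 of 10 beside 7.90%). Its mean in WT was 3.96 ± 0.30 (SD, n = 5), 3.47 ± 0.09 (n = 4), 4.38 ± 0.05 (n = 5), and 4.77 ± 0.26 (n = 5) log2 CPM at days 3, 6, 12, and 21, and in HNKO 4.48 ± 0.20 (n = 5), 4.28 ± 0.20 (n = 5), 4.86 ± 0.27 (n = 6), and 5.23 ± 0.32 (n = 3). In both genotypes it was lowest at day 6 and highest at day 21. Ordered over the 8 groups, HNKO of day 21 came first, followed by HNKO of day 12 and WT of day 21, which were within 1 SD. Next were HNKO of day 3, WT of day 12, and HNKO of day 6, with neighbors within 1 SD, and last WT of days 3 and 6.

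Tead2 (chr7:45215753-45233644, plus strand) and Tead4 (chr6:128224288-128300823, minus strand) were present at low levels, with 30 to 138 and 8 to 78 counts per library. Cd37 on the opposite strand overlaps 13 exonic bases of Tead2, with the same doubt about the strand as for Yap1. Tead4 in the WT libraries at day 3 was -0.93, -0.87, -0.86, -0.59, and -0.24 log2 CPM, and in the HNKO libraries 0.02, 0.06, 0.14, 0.50, and 0.50. The HNKO libraries were all above the WT libraries at that day and overlapped with them at the later days. The log2 fold change of Tead4 was 1.01 at day 3 (SE 0.31, adjusted p = 0.0538, edgeR), just short of the threshold, and 0.34, 0.08, and 0.41 at days 6, 12, and 21. Without HNKO library 29 the log2 fold change at day 6 was 0.095, and without HNKO library 37 it was 0.22 at day 21. Over the mean of the days it was 0.46 for Tead4 (SE 0.16, adjusted p = 0.0204) and 0.43 for Tead2 (SE 0.13, adjusted p = 0.0106, edgeR). Without HNKO library 37, Tead4 was not called over the mean of the days (0.42, adjusted p = 0.0524), and with all 40 libraries neither gene was called. Tead3 (chr17:28331671-28350817, minus strand) ranged from 3.37 to 4.10 log2 CPM over the 38 libraries and was lower in HNKO over the mean of the days (log2 fold change -0.14, SE 0.05, adjusted p = 0.0274, edgeR). By day the log2 fold changes were -0.16, -0.12, 0.04, and -0.32, none of them called, and HNKO of day 12 had the highest mean of the 8 groups. The call over the mean of the days was present in 30 of the 38 fits with 1 library left out and was lost without WT library 10 or HNKO libraries 23, 29, 30, 35, 37, 38, or 40 (log2 fold changes -0.13 to -0.11). It was also lost without a filter on low counts (-0.13, adjusted p = 0.0848), with 10 or more counts required in each library (-0.11, adjusted p = 0.0623), and with all 40 libraries (-0.13, adjusted p = 0.0705, edgeR). The 3 HNKO libraries of day 21 lay below the 5 WT libraries.

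Among the regulators, Lats2 (chr14:57689662-57758388, minus strand), the kinase that phosphorylates YAP and TAZ, was not called at any day. It ranged from 2.94 to 3.84 log2 CPM, its log2 fold changes were 0.09, 0.16, -0.08, and 0.21 at days 3, 6, 12, and 21, and over the mean of the days it was 0.09 (95% interval -0.02 to 0.21, adjusted p = 0.217, edgeR). Its level is uncertain, because 2955 of its 6971 exonic bases also belong to Gm49361, a gene on the same strand with a median of 0 counts. Amotl2 (chr9:102716672-102733418, plus strand), a scaffold of the angiomotin family that binds YAP, ranged from 4.50 to 6.00 log2 CPM. Its log2 fold changes were -0.39, -0.21, -0.17, and -0.23 at days 3, 6, 12, and 21, none of them called, and over the mean of the days it was lower in HNKO (log2 fold change -0.25, SE 0.08, adjusted p = 0.0117, edgeR). The libraries of the genotypes overlapped at every day.

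Ajuba (chr14:54567472-54577558, minus strand) encodes a LIM-domain scaffold that binds and restrains the LATS kinases. At day 3 the WT libraries held 3.14, 3.25, 3.60, and 3.62 log2 CPM, with WT library 24 below them at 108 counts, and the HNKO libraries 3.42, 3.78, 4.17, 4.27, and 4.48. At day 6 the WT libraries held 2.85, 2.91, 3.04, and 3.33 and the HNKO libraries 2.99, 3.53, 3.69, 3.83, and 4.56. In both comparisons 4 of 5 HNKO libraries were above every WT library, and library 29 was the highest of day 6. At day 12 the WT libraries lay between 2.72 and 3.40 and the HNKO libraries between 3.05 and 3.94 with a median of 3.41. At day 21 the WT libraries held 2.68, 2.81, 2.89, 3.03, and 3.12, and the HNKO libraries 3.52, 3.52, and 4.68. The genotypes overlapped at day 12 and were apart at day 21, where library 37 stood well above libraries 38 and 40. Ajuba was called at day 6 (log2 fold change 0.78, SE 0.26, adjusted p = 0.0451, edgeR) and at day 21 (1.11, SE 0.27, adjusted p = 0.0199). It was not called at day 3 (0.77, SE 0.24, adjusted p = 0.0567, edgeR) or day 12 (0.48, SE 0.23, adjusted p = 0.197). Over the mean of the days it was 0.79 (SE 0.13, adjusted p = 1.05e-05, edgeR), called in 38 of 38 fits with 1 library left out, and within the label series the difference was positive in 7 of 7 comparisons. At day 6 Ajuba was called in 2 of 9 fits with 1 library left out. The call was lost without any of HNKO libraries 7, 29, and 30 and WT libraries 8, 10, 27, and 28, and without library 29 the log2 fold change was 0.52 (adjusted p = 0.256, edgeR). It was also lost without a filter on low counts (0.79, adjusted p = 0.0575), with all 40 libraries (0.76, adjusted p = 0.0754), and in a fit of the 2 groups alone (0.77, adjusted p = 0.102, edgeR). At day 21 the call was lost without HNKO library 37 (0.63, adjusted p = 0.580).

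Ankrd1 (chr19:36111961-36120099, minus strand), which encodes the ankyrin repeat protein CARP and is widely used as a YAP/TAZ target, differed the most among the members. At day 3 the WT libraries held -1.88, -1.24, -1.06, -0.35, and 0.94 log2 CPM and the HNKO libraries -0.12, 0.81, 1.38, 1.62, and 2.06. At day 6 the WT libraries held -1.46, -1.45, -1.40, and -0.98 and the HNKO libraries 0.22, 0.77, 1.70, 1.73, and 3.25. WT library 1, with 57 counts, reached into the HNKO range at day 3, while the 4 WT libraries of day 6 had 6 to 10 counts each and the 5 HNKO libraries 32 to 406. At day 12 the WT libraries lay between -1.75 and -0.77 and the HNKO libraries between -0.49 and 1.68, with a median of 0.96. At day 21 the WT libraries held -1.97, -1.90, -1.89, -1.24, and -1.23 and the HNKO libraries 0.31, 0.66, and 0.77. From day 6 on, every HNKO library was above every WT library of its day. Between the lowest and the highest HNKO library there was 4.53-, 8.19-, 4.51-, and 1.37-fold at days 3, 6, 12, and 21. Between those of WT it was 7.06-, 1.39-, 1.97-, and 1.67-fold. The highest HNKO library of day 6 was library 29, with 406 counts.

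In edgeR, the log2 fold change of Ankrd1 was 1.75 after 3 days (SE 0.52, adjusted p = 0.0440) and 3.48 after 6 days (SE 0.62, adjusted p = 0.000404). After 12 days it was 2.35 (SE 0.54, adjusted p = 0.00841, edgeR), and after 21 days 2.51 (SE 0.63, adjusted p = 0.0231). These correspond to 3.36-, 11.2-, 5.11-, and 5.71-fold. Over the mean of the days it was 2.52 (SE 0.29, adjusted p = 4.89e-08, edgeR). In exact permutation tests of log2 CPM (two-sided), the unadjusted p was 0.0238, 0.0159, 0.00649, and 0.0179 at the 4 days, and 0.0179 is the smallest that 3 against 5 libraries allow. Within the label series the difference was positive in 7 of 7 comparisons, from 1.26 to 3.68; in the first series no HNKO library of day 21 remained. The counts in WT were low, so that single fragments weigh on the fold change, and without HNKO library 29 the log2 fold change at day 6 was 2.78 (adjusted p = 0.00310). At day 3 the call was lost without any of HNKO libraries 2, 3, and 23 and WT libraries 5, 24, 25, and 26 (log2 fold changes 1.47 to 1.85). It was also lost without a filter on low counts (1.74, adjusted p = 0.0563), with all 40 libraries (1.75, adjusted p = 0.104), in a fit of the 2 groups alone (1.75, adjusted p = 0.107), and with the edgeR 4 computation (1.71, adjusted p = 0.0526), and without WT library 1 the log2 fold change was 2.57. At day 21 the call was lost without HNKO library 37 (2.49, adjusted p = 0.239, edgeR) or WT libraries 19, 21, or 41 (2.37 to 2.46). In the order of the 8 group means the 4 HNKO groups came first, from 1.53 ± 1.15 at day 6 to 0.58 ± 0.24 at day 21, with neighbors within 1 SD, and the 4 WT groups followed, from -0.72 ± 1.07 at day 3 to -1.65 ± 0.38 at day 21, also with neighbors within 1 SD.

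**Figure D2:**
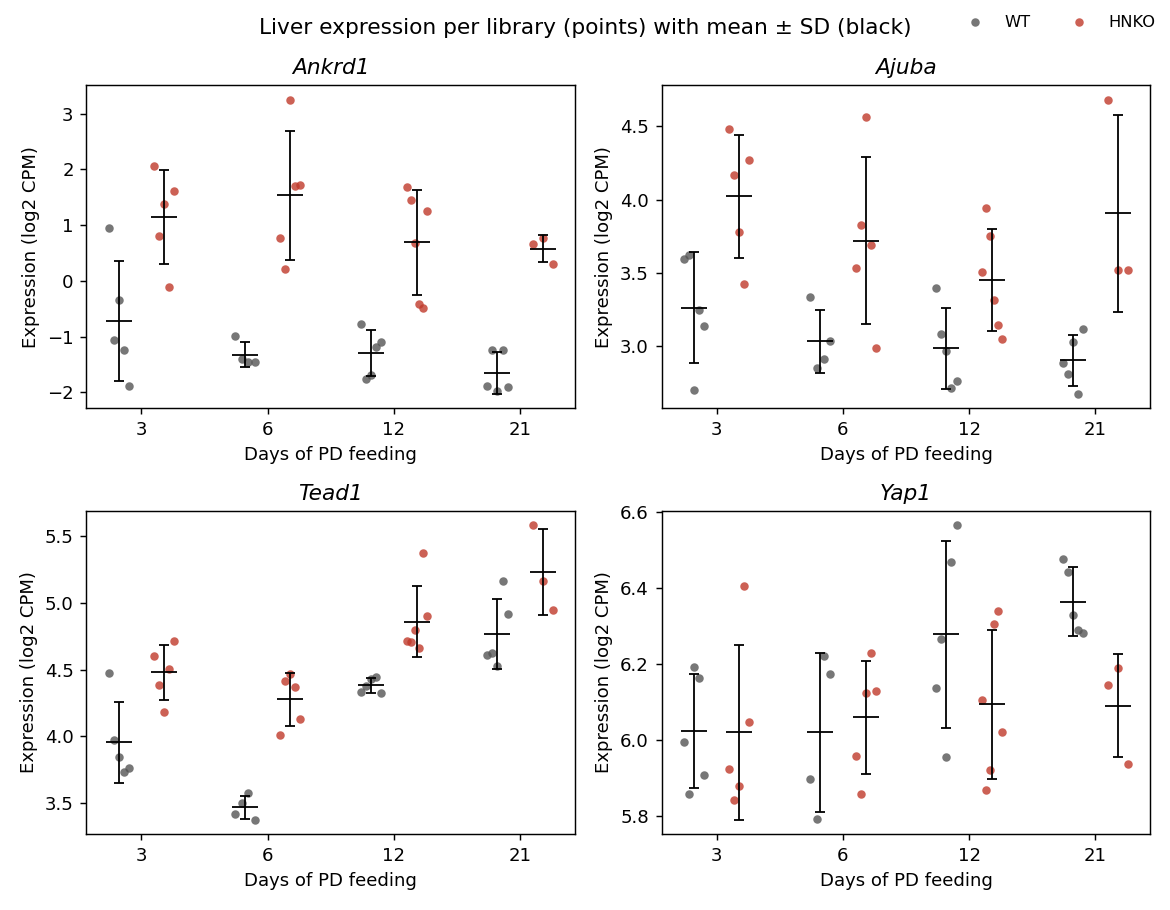
Expression of Ankrd1, Ajuba, Tead1, and Yap1 in each of the 38 liver libraries (y axis, log2 CPM; x axis, days of PD feeding; gray, WT; red, HNKO). Points are libraries and black bars are the mean ± SD of a group; for Ankrd1 every HNKO library lies above every WT library of its day at days 6, 12, and 21, whereas for Yap1 the HNKO libraries lie below WT at day 21 only.

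Counted over the members, all HNKO libraries lay above all WT libraries for 1 of 10 members at day 3 (Tead4; 2.31% of all tested genes), 2 at day 6 (Tead1 and Ankrd1; 8.08%), 3 at day 12 (Wwtr1, Tead1, and Ankrd1; 2.65%), and 2 at day 21 (Ajuba and Ankrd1; 7.25%). All HNKO libraries lay below all WT libraries for 2 of 10 at day 21 (Yap1 and Tead3; 6.70% of genes). With 3 HNKO libraries at day 21, a lack of overlap is easier to reach than at the other days.

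Per length of exonic sequence that no other gene on the same strand shares, Yap1, Amotl2, and Wwtr1 were the most abundant members over the 19 WT libraries, with 7.92 ± 1.25, 7.61 ± 1.29, and 6.63 ± 0.802 CPM per kilobase (SD). Their ranges overlapped, and their order was not the same at each day. Lats2 (2.69 ± 0.355), Ajuba (2.29 ± 0.488), Tead3 (2.11 ± 0.202), and Tead1 (1.41 ± 0.509) formed an overlapping middle group, followed by Tead2 (0.421 ± 0.121), Tead4 (0.217 ± 0.0783), and Ankrd1 (0.144 ± 0.128). At day 3 the WT mean of Ankrd1 (0.244) was above that of Tead4 (0.154). In the 19 HNKO libraries, Wwtr1 (7.74 ± 0.966) came before Yap1 (7.28 ± 0.901) and Amotl2 (6.37 ± 1.26), with overlapping ranges. There Ankrd1 was at 0.840 ± 0.683 CPM per kilobase and thus above Tead2 (0.555 ± 0.151) in mean, with overlapping ranges. At day 21 this order was reversed, with HNKO means of 0.498 for Ankrd1 and 0.617 for Tead2. Ajuba was at 3.88 ± 1.44 in the 19 HNKO libraries, ahead of Lats2 (2.79 ± 0.423), again with overlapping ranges. Even where it was raised, Ankrd1 remained a transcript of low abundance in whole liver.

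The region before the start of each gene was searched for GGAATG and its reverse complement CATTCC, the core letters that TEAD factors bind, in the 250 bases upstream of the RefSeq starts (GRCm38.p6). Of the 10 members, 8 had an entry; Tead1 and Tead4 had none. The letters were found for 6 of these 8 (Yap1, Wwtr1, Tead3, Amotl2, Ajuba, and Ankrd1), and for 14.4% of the 27025 genes with an entry. Matches were thus present for members that were higher, lower, and not called, and a match says only that the letters are in this window. Ajuba and Ankrd1 each had 2 matches and are shown because their log2 fold changes over the mean of the days were the largest, whereas Tead3, which was lower in HNKO, had 3 matches over its 3 windows. The 250 bases before the start of Ajuba (chr14:54577662-54577911, minus strand, outside the annotated exons of the gene) are given 5′ to 3′ with the matches in capitals, and for Ankrd1 only the letters around each match are given (chr19:36120039-36120064 and chr19:36119952-36119977, minus strand), because a GENCODE transcript starts farther upstream and includes the stretch in its first exon.
Ajuba: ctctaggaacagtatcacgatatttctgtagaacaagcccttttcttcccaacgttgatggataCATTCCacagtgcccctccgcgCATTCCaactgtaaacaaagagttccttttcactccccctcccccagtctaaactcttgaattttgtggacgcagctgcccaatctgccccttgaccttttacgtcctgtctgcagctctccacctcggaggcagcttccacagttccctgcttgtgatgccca
Ankrd1, match starting 210 bases before the start: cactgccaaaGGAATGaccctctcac
Ankrd1, match starting 123 bases before the start: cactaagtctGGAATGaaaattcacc

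The other genes of the pathway were followed with lists of 45 genes. The kinase cassette and its adaptors, which carry the signal to YAP, comprised 10 genes. Of these, 0 were called at day 3 (all tested genes, 2.95% higher and 1.71% lower) and 0 at day 6 (8.42% and 4.37%). At day 12, 2 were lower (3.27% of all tested genes were lower), at day 21 it was 1 (0.916%), and over the mean of the days 1 (Taok3; 17.3%). Stk3, Stk4, and Sav1, the core of the cassette, had log2 fold changes over the mean of the days of 0.10, -0.05, and -0.03, none of them called. Lats1, the other LATS kinase, was lower at day 12 (-0.20, SE 0.06, adjusted p = 0.0462, edgeR), and Taok3, an upstream kinase, was lower at days 12 (-0.37, SE 0.11, adjusted p = 0.0331) and 21 (-0.49, SE 0.13, adjusted p = 0.0357). The median log2 fold change of the list over the mean of the days was -0.04, beside -0.01 over all tested genes.

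Of 13 upstream regulators, 1, 3, 2, and 1 were called at days 3, 6, 12, and 21, all higher in HNKO, beside 2.95%, 8.42%, 4.56%, and 2.21% of all tested genes. With the days averaged, 6 were higher and 1 lower (all tested genes, 19.2% and 17.3%), with a median of 0.17. Amot, the angiomotin that binds YAP at cell junctions, was higher at all 4 days, by log2 fold changes of 0.61, 0.51, 0.54, and 0.64 (SE 0.15 to 0.17, adjusted p = 0.0200, 0.0353, 0.0210, and 0.0348, edgeR). It thus moved the other way from its relative Amotl2. Wwc2, a scaffold related to KIBRA, was higher at days 6 (0.40, SE 0.08, adjusted p = 0.00162) and 12 (0.26, SE 0.07, adjusted p = 0.0287), and Nf2, the tumor suppressor merlin, was called only over the mean of the days (-0.13, SE 0.05, adjusted p = 0.0461, edgeR). Of the 4 VGLL coregulators, which compete with YAP for TEAD, Vgll1 and Vgll2 did not pass the filter, and Vgll3 was called higher at day 6 (1.89, SE 0.55, adjusted p = 0.0207, edgeR). The WT libraries of that day had 4 to 7 counts of Vgll3 each, and the HNKO libraries 13 to 56.

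Among 18 YAP/TAZ targets outside the members, 17 were tested (Foxf2 had at most 4 counts in a library), and 3, 8, 3, and 2 were called higher in the order of the days, beside 2.95%, 8.42%, 4.56%, and 2.21% of all tested genes. F3 was lower at day 3 (1.71% of all tested genes were lower) and Nt5e at day 12 (3.27%). The means were 2.04 log2 CPM in HNKO and 2.72 in WT for F3 at day 3. For Nt5e at day 12 they were 5.33 and 6.17, and for both genes the libraries of the genotypes overlapped. Over the mean of the days 10 were higher and 3 lower (all tested genes, 19.2% and 17.3%), and the median log2 fold change was 0.26. Myof, a membrane repair protein, was higher at all 4 days by 0.97, 1.44, 0.99, and 1.02 (adjusted p = 0.0152, 0.000387, 0.00841, and 0.0267, edgeR). The growth factor gene Tgfb2 was higher at days 3, 6, and 21 by 1.71, 1.88, and 1.94 (adjusted p = 0.00829, 0.00307, and 0.0105, edgeR), and its HNKO and WT libraries were apart at days 6 and 21. Axl, a receptor tyrosine kinase, was higher at days 6 and 12 (0.61 and 0.43, adjusted p = 0.00327 and 0.0274), Arhgef17 at days 3 and 6 (0.54 and 0.45, adjusted p = 0.0200 and 0.0357), and Fjx1 at days 6 and 12 (2.95 and 2.14, adjusted p = 0.0138 and 0.0230, edgeR), the last from at most 4 counts per WT library.

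The best known targets, Ccn1 and Ccn2, which encode secreted matricellular proteins, were each called at no more than 1 day. Ccn2 was called higher at day 6 (1.35, SE 0.35, adjusted p = 0.0100, edgeR), where HNKO libraries ranged from 2.55 to 4.12 log2 CPM and WT libraries from 1.68 to 2.26. At day 12 its log2 fold change was -0.06 (adjusted p = 0.932), and the WT libraries of that day, at 2.22 to 3.53, covered nearly the range of HNKO, at 2.31 to 3.71. At days 3 and 21 the log2 fold changes of Ccn2 were 0.83 and 1.04 (adjusted p = 0.130 and 0.106, edgeR, not called), and over the mean of the days it was higher in HNKO (0.79, SE 0.17, adjusted p = 0.000358). Ccn1 was not called at any day (0.36, 0.48, 0.58, and 0.71), varied from 3.35 to 4.88 log2 CPM among WT libraries, and was called over the mean of the days (0.53, SE 0.18, adjusted p = 0.0187, edgeR).

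Several of the members are also expressed in bile duct cells and stellate cells, so markers of other liver cells were measured beside them. In whole tissue, a larger share of a cell type and more RNA per cell cannot be told apart. Of 7 ductal markers, 6, 6, 5, and 4 were called higher at days 3, 6, 12, and 21, beside 2.95%, 8.42%, 4.56%, and 2.21% of all tested genes. Spp1, Epcam, Krt7, Sox9, and Ncam1 of this list were already reported by the study as raised in HNKO livers of this time course. The counts are therefore no independent result. The summed level of the 7 markers lay between 34.7 and 49.7 CPM in the WT libraries and was 265 ± 139, 344 ± 237, 165 ± 36.3, and 284 ± 183 CPM (SD) in HNKO. Spp1 made up at least 78.7% of the sum in each group. Of 8 stellate cell and myofibroblast markers, 4, 5, 3, and 4 were called higher, beside the same shares of all tested genes. Lrat was not among them, with group means of 5.20, 5.54, 5.63, and 5.39 log2 CPM in WT and 4.88, 5.42, 5.20, and 5.39 in HNKO. The sum, with Col3a1 the most abundant, was 165 ± 36.2, 123 ± 2.89, 152 ± 45.6, and 136 ± 9.77 CPM in WT and 383 ± 271, 485 ± 265, 279 ± 102, and 415 ± 258 CPM in HNKO. The HNKO libraries with the highest ductal and stellate sums of their day were library 29 at day 6 (757 and 889 CPM) and library 37 at day 21 (488 and 693 CPM), which also had the highest Ajuba of their day.

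Of 6 macrophage and leukocyte markers, 0, 3, 2, and 1 were called higher (all tested genes, 2.95%, 8.42%, 4.56%, and 2.21%). Their sum, led by Cd5l, was 553 ± 53.9, 534 ± 62.8, 344 ± 75.9, and 405 ± 66.5 CPM in WT and 556 ± 80.3, 793 ± 125, 469 ± 90.8, and 525 ± 45.1 CPM in HNKO. Of 6 endothelial markers, 0, 1, 1, and 0 were called, both times Kdr and lower (all tested genes called lower, 1.71%, 4.37%, 3.27%, and 0.916%). The sum, led by Stab2, was 542 ± 17.4, 552 ± 14.7, 528 ± 50.9, and 513 ± 34.2 CPM in WT and 529 ± 33.5, 514 ± 39.6, 501 ± 24.2, and 495 ± 47.0 CPM in HNKO. Of 6 hepatocyte markers, 1 was called lower at day 6 (Alb; 4.37% of all tested genes), 0 at the other days, and 2 lower over the mean of the days (17.3% of all tested genes). Their sum, led by Alb, was 136000 ± 5770, 136000 ± 7700, 135000 ± 15600, and 129000 ± 19800 CPM in WT and 102000 ± 19000, 92300 ± 16800, 111000 ± 10500, and 103000 ± 17100 CPM in HNKO, so that its mean was below WT at each day. No marker of the 5 lists was at 0 in all libraries of a group. The part of other cell types in the differences of the members was not tested.

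After the mean of each group was subtracted, Ajuba rose and fell with the summed stellate markers over the 38 libraries (Pearson r = 0.678, permutation p = 0.00043, Spearman rho = 0.541, permutation p = 0.00536) and with the ductal markers (r = 0.669, p = 0.00195, rho = 0.550, p = 0.00396, permutation test). Without the 2 libraries whose marker sum deviated the most, r was 0.655 and 0.545, and within the label series it was 0.606 and 0.768 for stellate and 0.707 and 0.764 for ductal markers. In the 19 HNKO livers r was 0.825 and 0.783, and in the 19 WT livers, where the ductal sum had a far narrower range, it was -0.04 and -0.02. The difference between the genotypes in r was not tested. Each sum weighs its markers by abundance, so relations with the ductal markers rest largely on Spp1. Col3a1 weighs the most in the stellate sum, and no relation with a single marker was computed. Tead2 went with the stellate markers (r = 0.668, permutation p = 4e-05, rho = 0.715, permutation p = 1e-05, the smallest that 100000 permutations can give). Its r was 0.587 without the 2 farthest libraries and 0.532 and 0.813 within the label series, and it was 0.914 in HNKO and 0.354 in WT. With the ductal markers r of Tead2 was 0.518 (permutation p = 0.00216) and rho 0.416 (permutation p = 0.0258), with r = 0.437 without the 2 farthest libraries and 0.522 and 0.600 within the label series, 0.780 in HNKO and -0.02 in WT.

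Wwtr1 also went with the stellate markers (r = 0.563, permutation p = 0.00301, rho = 0.433, permutation p = 0.0207). Its r was 0.565 without the 2 farthest libraries, 0.688 within the first label series, lower but positive within the second, 0.801 in the HNKO livers, and -0.01 in the WT livers. Ankrd1 went with the ductal markers (r = 0.543, permutation p = 0.00206, rho = 0.463, permutation p = 0.00863), less so without the 2 farthest libraries (r = 0.359), and r was 0.463 and 0.623 within the label series, 0.634 in HNKO, and 0.292 in WT. For Ankrd1 and the stellate markers r was 0.333 (permutation p = 0.0947) and rho 0.240 (permutation p = 0.217). In all, 20 relations were computed, 10 members against 2 marker sums. After adjustment over the 20, the p of r for stellate and ductal markers was 0.00430 and 0.00864 for Ajuba, 0.0008 and 0.00864 for Tead2, and 0.158 and 0.00864 for Ankrd1, and it was 0.0100 for Wwtr1 and stellate markers (permutation tests). For rho the adjusted p was 0.0357 and 0.0357 for Ajuba, 0.0002 and 0.0737 for Tead2, 0.288 and 0.0432 for Ankrd1, and 0.0690 for Wwtr1 and stellate markers (permutation tests). No other relation had an adjusted p below 0.05. For Yap1 r was -0.11 with ductal and -0.25 with stellate markers (permutation p = 0.570 and 0.205, rho = -0.10 and -0.23, permutation p = 0.607 and 0.211).

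The tested genes whose deviations from the group means were most like those of Ankrd1 over the 38 libraries were Tnf (Pearson r = 0.665) and Ccn1 (r = 0.650). For Ajuba they were Tnip1 (r = 0.851) and Cep162 (r = 0.844), for Tead1 Arhgap17 (r = 0.787) and Aak1 (r = 0.779), and for Yap1 Senp5 (r = 0.837) and 1700047A11Rik (r = 0.836). For the other 6 members the highest r was between 0.673 and 0.784, and among the members themselves the most alike pair was Wwtr1 and Ajuba (r = 0.640).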

How the data were processed

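The counts are those deposited by the authors (STAR 2.7.2b and featureCounts 1.6.4), and no reads were realigned. Genes were tested in R 4.3.3 with edgeR 4.0.16 (filterByExpr, TMM, legacy quasi-likelihood F test, 8 groups, Benjamini-Hochberg over 20297 genes). DESeq2 1.42.0, other size factors, other filters, all 40 libraries, robust estimation, a covariate, and leaving out each library were the alternatives. Exact permutation tests and correlations (100000 permutations) were run in Python 3.11.15. Gene models were GENCODE M21, whereas the authors used M22. The members, the pathway lists, and the marker lists (ductal, stellate, endothelial, macrophage, hepatocyte) were chosen with earlier results of these data known. Genes of the pathway lists were named when called at 2 or more days, together with the core genes Stk3, Stk4, Sav1, Lats1, Nf2, Ccn1, and Ccn2. Vgll3, F3, and Nt5e were named as the only call of their list or direction at a day.

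Day 21 has 3 HNKO libraries, all of the second label series. RNA levels do not measure the location or phosphorylation of YAP and TAZ, on which the pathway acts. The shares of cell types in the livers were not measured. Ankrd1, Tead4, Vgll3, and Fjx1 rest on few counts, and 41.2% of the 51-base stretches of Lats2 also occur in other genes, most of them in Gm49361.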

Additional observations from a re-analysis of the deposited data

Results flagged for a closer look

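Within groups, 5 of 70 sets of values held a value set apart by Dixon's test, which by chance happens in about 1 of 20 groups. These were Wwtr1 in WT library 33 of day 12 (4.76, nearest 5.06), Wwtr1 in HNKO library 13 of day 12 (5.49, nearest 5.23), Tead1 in HNKO library 35 of day 12 (5.37, nearest 4.90), Tead3 in WT library 19 of day 21 (4.10, nearest 3.82), and Ankrd1 in WT library 8 of day 6 (-0.98, nearest -1.40), in log2 CPM.

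The values in this paragraph were normalized over all 40 libraries and so differ slightly from those given above. The libraries 17 and 18 of HNKO at day 21, which failed quality control, were above the highest WT library of day 21 for Wwtr1 (5.41 and 5.24, highest WT 5.12) and Ajuba (3.26 and 3.50, highest WT 3.11). Library 17 was above it for Tead1 (5.20, highest WT 5.16), and library 18 for Tead4 (0.58, highest WT 0.12), Lats2 (3.89, highest WT 3.78), and Ankrd1 (0.53, highest WT -1.23). Library 18 was below the lowest WT library for Yap1 (6.02, lowest WT 6.28), Tead3 (3.50, lowest WT 3.73), and Amotl2 (5.26, lowest WT 5.46), and library 17 for Lats2 (3.31, lowest WT 3.43). Library 17 had 0 counts for Tead2, Tead4, and Ankrd1.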

How the results depend on the processing

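At day 3, where 2 members were called, DESeq2 called 4 (also Tead4 and Ajuba), the fit without a filter on low counts 0, a stricter filter (10 or more counts in each library) 1 (Tead1), the fit of all 40 libraries 0, the edgeR 4 computation 1 (Tead1), and the fit of only the 2 groups of the day 1, which was Tead4 and neither Tead1 nor Ankrd1. Leaving out 1 library gave 0 to 4. At day 6, with 3 called, the fit without a filter, the stricter filter, all 40 libraries, and the 2 groups alone each gave 2, and leaving out 1 library gave 2 to 3. Under the stricter filter, Ankrd1 and Tead4 were not tested, and 1 member was called at day 12, 1 at day 21, and 5 over the mean of the days, against 2, 2, and 8. With all 40 libraries 5 were called over the mean of the days. Leaving out 1 library gave 1 to 2 at day 12 (1 without HNKO library 35) and 0 to 3 at day 21 (0 without HNKO library 37, 1 without WT libraries 19, 21, or 41). For the effect of day in WT, 2 instead of 1 were called with the label series as a covariate, and 1 to 2 with 1 library left out. For the effect of day in HNKO, leaving out 1 library gave 1 to 2. No log2 fold change that was called changed its sign under an alternative. Of those not called, Yap1 at days 3 and 6 and Tead4 at day 12, all near 0, did so, with values down to -0.12, -0.04, and -0.06.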
